A study of Homo sapiens with 4 samples.

Results

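The enzymes that copy, write and erase DNA methylation, and those of the Polycomb repressive complex PRC2, were compared between the core and the invasion zone of melanoma spheroids. The 10 genes examined, of 56304 gene rows, were DNMT1, UHRF1, HELLS, EZH2, DNMT3A, DNMT3B, EZH1, SUZ12, EED and TET1, each found by its symbol in the count table. They were read in 2 classes. The 4 replication-coupled genes were DNMT1, UHRF1, HELLS and EZH2, and the other 6 members were the remaining genes. The choice of genes and classes did not use their measured values in a rule, but it was made with earlier results of these data known.

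MV3 is an established, highly metastatic human melanoma line, and the cells used in all samples stably expressed a green fluorescent histone (H2B-GFP). Spheroids of 50000 cells were cultured in collagen I for 2 days without treatment. The core was then taken with a 1 mm punch and the invasion zone around it with a 3 mm punch, and bulk RNA was sequenced from 2 core and 2 invasion zone libraries, numbered 1 and 2 in each zone. The punch cut vertically, so a core sample can hold invading cells above and below the core, and all 4 libraries come from a single cell line. Library totals were 36363358 and 14983135 counts in the core (replicates 1 and 2) and 37591782 and 11789243 in the invasion zone, and mitochondrial genes took 1.06% to 1.72% of the counts. Of 8 melanocyte lineage markers, 4 passed the low-count filter. SOX10 and TYR had 0 counts in every library and MITF had 1.71 to 3.36 CPM, so the defining markers of the lineage were absent or near it in both zones. Of 8 markers of leukocytes, epithelium, endothelium and fibroblasts, 7 did not pass the filter. PECAM1, an endothelial adhesion gene, had 18.1 and 7.42 CPM in the core and 5.22 and 0.925 in the invasion zone, and its part in the results was not tested, while CD3E and DCN had 0 counts in every library.

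DNA methylation is copied after each round of replication. UHRF1 recognizes hemimethylated DNA at the fork and brings in DNMT1, the maintenance methyltransferase, and HELLS is a chromatin remodeler that opens nucleosomal DNA to this machinery. DNMT3A and DNMT3B place methyl groups on unmethylated sites, and TET1 oxidizes them as a step toward their removal. PRC2 methylates histone H3 at lysine 27 through EZH2, or through its paralog EZH1 in cells that divide little, and needs SUZ12 and EED for activity. DNMT1, UHRF1, HELLS and EZH2 are known as genes whose transcripts are made mostly in dividing cells.

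All 4 replication-coupled genes had higher means at the invasion zone than in the core, by 1.88-fold to 2.46-fold. Of the other 6 members, DNMT3B, EED and SUZ12 were higher by 1.33-fold to 1.74-fold, whereas DNMT3A, EZH1 and TET1 were lower. For each of the 10 genes, both invasion zone libraries lay on the same side of both core libraries, 7 above and 3 below. Among all 15529 genes tested, 28.1% lay above in this way and 30.3% below. Values below are normalized CPM, that is, counts relative to the library total after TMM scaling (trimmed mean of M values).

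**Figure D1:**
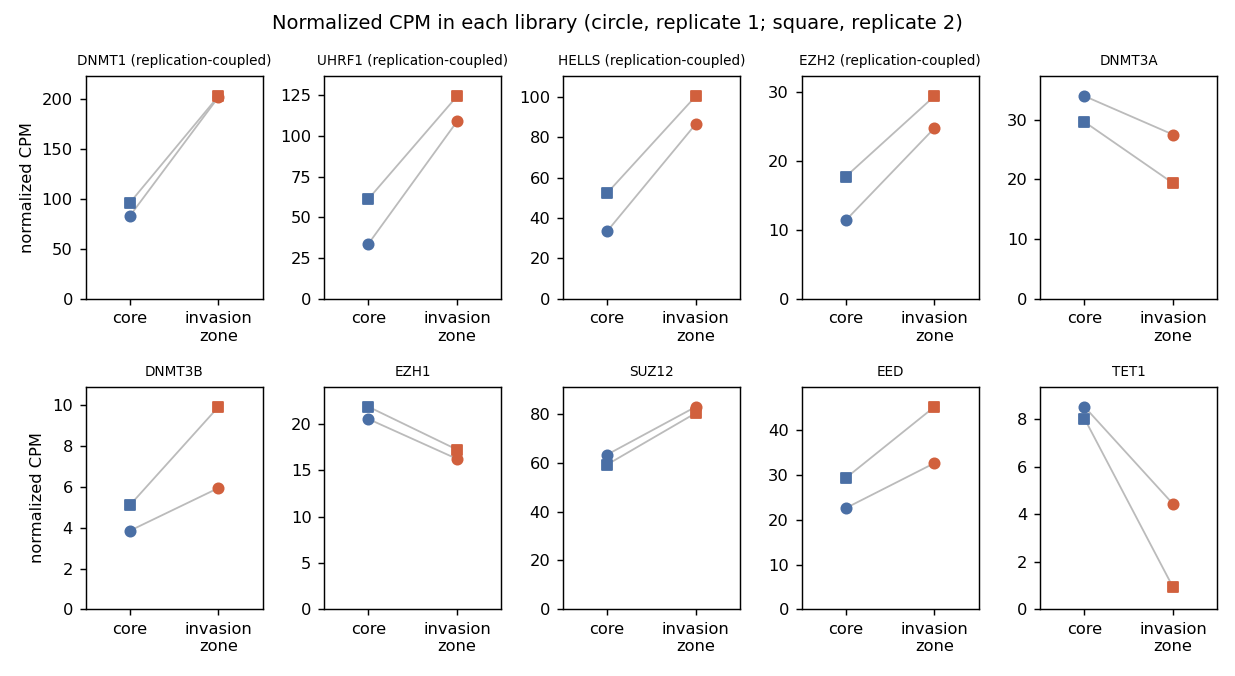
Normalized CPM (vertical axes, each from 0) of the 10 genes in the core (blue) and the invasion zone (orange), with circles for replicate 1, squares for replicate 2 and a line joining the libraries of the same number. The 7 genes with higher invasion zone values slope upward along both lines, and the invasion zone values of TET1, 4.42 and 0.925, lay far apart.

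DNMT1 (ENSG00000130816, chromosome 19 of GRCh38, 10133342 to 10231286, minus strand) had 83.0 and 96.2 CPM in core replicates 1 and 2, and 202 and 203 CPM in the invasion zone. The 2 invasion zone libraries were nearly equal and more than double either core library. The log2 fold change was 1.18 (standard error 0.14). Within replicates, the ratio of invasion zone to core was 2.44 in replicate 1 and 2.11 in replicate 2. The exact 95% intervals of these ratios, 2.34 to 2.54 and 1.98 to 2.26, cover counting error only, as do all such intervals given here.

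UHRF1 (ENSG00000276043, chromosome 19, 4903080 to 4962154, plus strand) had 33.8 and 61.3 CPM in the core and 109 and 124 CPM in the invasion zone. The zones did not overlap, and core replicate 1 was well below core replicate 2. Its log2 fold change of 1.30 (standard error 0.30) was the largest of the 7 genes that were higher. Without core replicate 1 it was 0.94.

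HELLS (ENSG00000119969, chromosome 10, 94545329 to 94613905, plus strand) had 33.5 and 52.4 CPM in the core and 86.6 and 100.5 CPM at the invasion zone, for a log2 fold change of 1.13 (standard error 0.24). Its lowest library was again core replicate 1, without which the value was 0.85. HELLS shares 438 of its 14231 exonic bases with another gene on its strand, so that a part of its reads could have been lost or split in the counting. DNMT1 shares 83 exonic bases and EED 66 with a gene on the same strand.

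EZH2 (ENSG00000106462, chromosome 7, 148807257 to 148884321, minus strand) had 11.4 and 17.7 CPM in the core and 24.7 and 29.3 CPM in the invasion zone. EZH2 had a log2 fold change of 0.91 (standard error 0.26), the smallest of the 4 replication-coupled genes, and 0.62 without core replicate 1. Its ratio of invasion zone to core was 2.18 in replicate 1 (95% interval 1.93 to 2.45) and 1.66 in replicate 2 (1.41 to 1.95).

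The promoters of these 4 genes were read for the letters bound by E2F, the transcription factor family that drives genes of DNA replication. The sequences are RefSeq's, on GRCh38.p14, from 100 bases before to 30 bases after a listed transcription start. They are shown because each of the 4 holds a match, which stands in capitals. Each is written 5′ to 3′ on the strand of its gene, and for UHRF1 and EZH2 it belongs to the most upstream of 3 and 2 listed starts.
DNMT1 (chr19:10194924-10195053, minus strand): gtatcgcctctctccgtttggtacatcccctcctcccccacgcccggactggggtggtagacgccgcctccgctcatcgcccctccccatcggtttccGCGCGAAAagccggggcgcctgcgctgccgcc
UHRF1 (chr19:4909401-4909530, plus strand): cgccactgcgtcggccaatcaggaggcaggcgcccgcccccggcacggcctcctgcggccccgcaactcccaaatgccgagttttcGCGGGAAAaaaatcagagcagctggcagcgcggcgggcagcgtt
HELLS (chr10:94545688-94545817, plus strand): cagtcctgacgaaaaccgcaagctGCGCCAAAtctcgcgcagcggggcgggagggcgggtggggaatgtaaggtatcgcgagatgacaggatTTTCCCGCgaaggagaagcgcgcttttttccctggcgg
EZH2 (chr7:148884262-148884391, minus strand): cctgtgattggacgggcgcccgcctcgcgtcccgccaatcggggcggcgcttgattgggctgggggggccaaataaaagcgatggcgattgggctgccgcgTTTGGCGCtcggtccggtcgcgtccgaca

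The letters searched were TTTCCCGC, TTTGGCGC, TTTCGCGC and TTTGCCGC on either strand, in windows from 250 bases before to 50 bases after each listed start. With 1 as the first transcribed base, the match of DNMT1 began at base -2, that of UHRF1 at -14, those of HELLS at -76 and -8, and that of EZH2 at base 2. UHRF1 held another match at -160 of its second listed start. The third listed start of UHRF1 and the second of EZH2 held no match. Of the other 6 members, 2 held a match, EZH1 at -115 and SUZ12 at -189, while no window of DNMT3A (6 starts), DNMT3B, EED or TET1 (3 starts) held these letters. Across all 35116 promoters in the table, 3.31% held a match, and across the 10050 tested genes with a listed promoter 6.55% held it in at least 1 window. The CHR element of G2/M genes, searched as TTTGAA or TTCGAA on either strand, was in none of the windows of the 4 replication-coupled genes. It was in the window of SUZ12 and in that of start 6 of the 6 listed for DNMT3A, but in no other window of DNMT3A. Of all promoters, 16.4% held the CHR letters. A match says only that the letters are present.

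Differences between the zones were tested with edgeR's quasi-likelihood method over 15529 genes, using Benjamini-Hochberg adjustment, and a call needed an adjusted p under 0.05 together with a 2-fold change. Without a replicate term, 0 of the 10 members were called in either direction, and 0% of all genes were called higher and 0% lower. The adjusted p was 0.112 for DNMT1, 0.114 for UHRF1, 0.112 for HELLS and 0.136 for EZH2 (edgeR). At an unadjusted p under 0.05 with a 2-fold change, DNMT1, UHRF1 and HELLS were higher and TET1 was lower, against 3.19% and 6.41% of all genes. DESeq2 called DNMT1, UHRF1 and HELLS higher and no member lower, against 2.53% and 4.20% of the genes to which it gave an adjusted p. DESeq2 gave EZH2 an adjusted p of 0.0378, but its change was under 2-fold.

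When the same edgeR test took the replicate number as a block, DNMT1, UHRF1 and HELLS were called higher and TET1 was called lower, against 3.79% and 7.40% of all genes. The adjusted p with the block was 9.74e-05 for DNMT1, 0.000314 for UHRF1, 0.000247 for HELLS, 0.00142 for EZH2 and 0.0142 for TET1 (edgeR). At any fold change, 9 of the 10 members passed the adjusted p with the block, 7 higher and 2 lower, against 20.0% and 20.1% of all genes. After thinning or the GC and length correction, 8 passed, DNMT3A being lost in both. EZH1 passed in none of these 3 fits, with an adjusted p of 0.0692 in the first (edgeR with block). In bulk RNA, more cells of a dividing kind in a zone and more RNA of these genes per cell cannot be told apart.

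**Figure D2:**
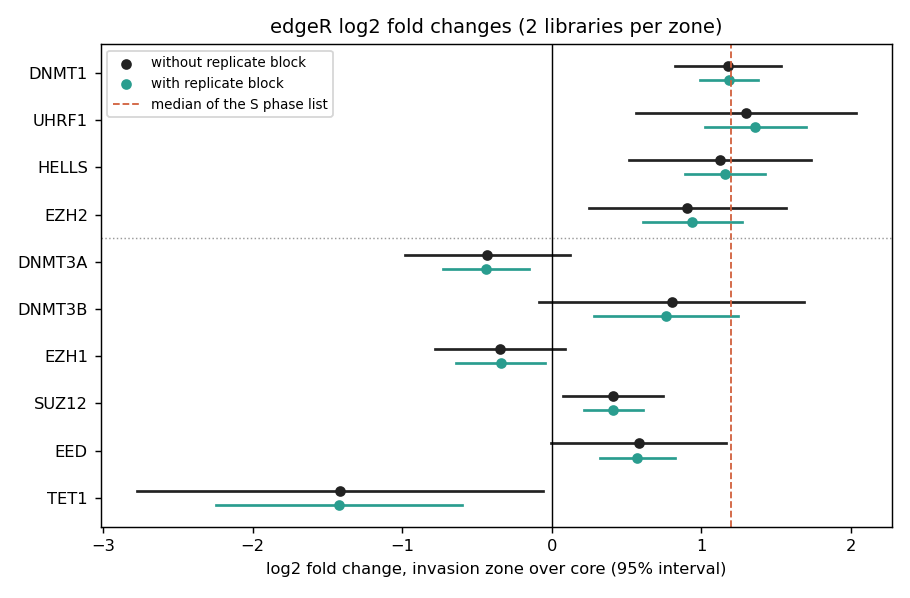
Log2 fold changes, invasion zone over core (horizontal axis), with 95% intervals from edgeR, without (black) and with (green) the replicate block, for 2 libraries per zone. The 4 replication-coupled genes, above the dotted line, sit near the dashed line at 1.20, the median of an S phase list, while DNMT3A, EZH1 and TET1 lie below 0.

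DNMT3A (ENSG00000119772, chromosome 2, 25227855 to 25342590, minus strand), a de novo methyltransferase, had 33.9 and 29.6 CPM in the core and 27.5 and 19.3 CPM in the invasion zone. The zones did not overlap but lay close, and the lowest library was invasion zone replicate 2. DNMT3A had a log2 fold change of -0.43 (standard error 0.22), with an adjusted p of 0.287 without the block and 0.0246 with it (edgeR). It was -0.21 without invasion zone replicate 2 and -0.72 without invasion zone replicate 1. It moved to -0.06 when the trends on GC content and transcript length of each library were taken out, with or without the block, and the adjusted p with the block then missed the threshold, as it did after thinning to the smallest library.

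DNMT3B (ENSG00000088305, chromosome 20, 32762385 to 32809359, plus strand), the second de novo enzyme, had 3.85 and 5.10 CPM in the core and 5.94 and 9.92 CPM in the invasion zone. Its highest library was invasion zone replicate 2, the opposite of DNMT3A, and core replicate 2 was close to invasion zone replicate 1. Its log2 fold change was 0.80 (standard error 0.35) and ranged from 0.44 (without invasion zone replicate 2) to 1.18 (without invasion zone replicate 1) with each library left out. The adjusted p was 0.225 without the block and 0.0197 with it (edgeR).

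TET1 (ENSG00000138336, chromosome 10, 68560337 to 68694487, plus strand) had 8.51 and 8.02 CPM in the core and 4.42 and 0.925 CPM in the invasion zone. The core libraries were alike, and both invasion zone libraries were lower by very different amounts. The value of invasion zone replicate 2 rests on 11 counts, for which the exact 95% interval is 0.462 to 1.65 CPM. The fold of invasion zone to core was 0.520 in replicate 1 (95% interval 0.428 to 0.630) and 0.115 in replicate 2 (0.0561 to 0.214). Its log2 fold change of -1.42 (standard error 0.55) became -0.91 without invasion zone replicate 2 and -3.16 without invasion zone replicate 1.

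SUZ12 (ENSG00000178691, chromosome 17, 31937007 to 32001038, plus strand), the scaffold subunit of PRC2, had 63.3 and 59.2 CPM in the core and 82.8 and 80.3 CPM in the invasion zone. Libraries of the same zone were close, so the small log2 fold change of 0.41 had the smallest standard error of the 10 genes, 0.13. The adjusted p was 0.149 without the block and 0.00592 with it (edgeR). SUZ12P1, a near-identical copy of part of the gene, had between 94 and 268 counts per library, and reads that fit both would not have been counted as unique.

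EED (ENSG00000074266, chromosome 11, 86201212 to 86278813, plus strand), the subunit that binds methylated lysine 27, had 22.6 and 29.3 CPM in the core and 32.6 and 45.1 CPM in the invasion zone. The log2 fold change was 0.58 (standard error 0.23), and the adjusted p 0.197 without the block and 0.00383 with it (edgeR). It was 0.34 without invasion zone replicate 2 and 0.80 without invasion zone replicate 1. Replicate 2 was the higher library in both zones, and 221 of the 6995 exonic bases of EED overlap a gene on the opposite strand.

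EZH1 (ENSG00000108799, chromosome 17, 42700275 to 42745049, minus strand) had 20.5 and 21.9 CPM in the core and 16.2 and 17.2 CPM in the invasion zone. The log2 fold change was -0.34 (standard error 0.17, 95% interval from edgeR -0.78 to 0.09), the smallest change in size of the 10 genes. The adjusted p was 0.280 without the block (edgeR).

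The 2 classes were then set against each other. The mean log2 fold change of the 4 replication-coupled genes was 1.13 and that of the other 6 members -0.07, a difference of 1.19. Within replicate 1 the means were 1.37 and -0.01, and within replicate 2 they were 0.94 and -0.34, which gives differences of 1.37 and 1.28. The smallest log2 fold change among the replication-coupled genes, 0.91 for EZH2, was above the largest among the others, 0.80 for DNMT3B. This order did not hold throughout. In replicate 2 DNMT3B reached 0.96, above 0.73 for EZH2, and DNMT3B was also above EZH2 without invasion zone replicate 1 (1.18 and 1.03) and after the GC and length correction (1.03 and 0.91 without the block, 0.97 and 0.93 with it). TET1 pulled the mean of the other members down, and the difference of the class medians was 1.12. No test was run on these means, because the genes were chosen with results known.

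Each gene was also set against an S phase list of 41 genes that holds no member. The list covers S phase only, and no list of G2/M genes was used. It was chosen with earlier results of these data known, as were the classes, so nearness to its median is a description. The median log2 fold change of this list was 1.20, with a range from 0.29 to 1.81, and 41 of 41 genes had higher values there than in the core, against a median of -0.01 over all genes tested. CLSPN, a checkpoint adaptor at the fork (log2 fold change 1.81), and CDC45, a part of the replicative helicase (1.69), were its genes with the largest change. The list had 27 genes called higher with the block and 0 without it (edgeR), with 27 at an unadjusted p and 26 in DESeq2. The shares of all genes were 3.79% with the block, 0% without it, 3.19% at an unadjusted p and 2.53% in DESeq2. DNMT1 lay 0.02 below the median of the list on the log2 scale, UHRF1 0.10 above it, HELLS 0.07 below it and EZH2 0.29 below it. These 4 genes had 11 to 26 of the 41 genes below them. DNMT3B, at 0.40 below the median, had 11 genes of the list below it, as many as EZH2. EED had 7 and SUZ12 had 3, and DNMT3A, EZH1 and TET1 had 0.

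**Figure D3:**
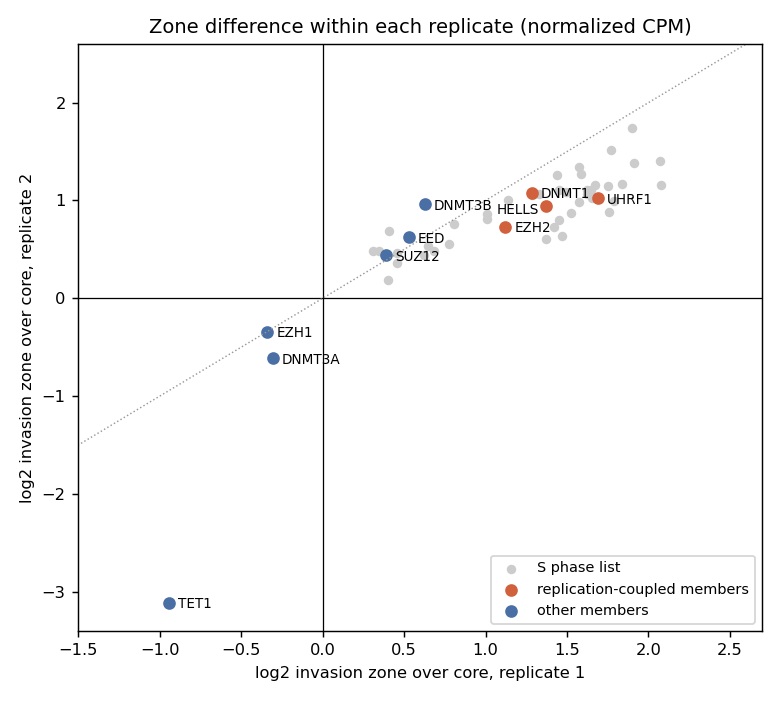
Log2 ratio of invasion zone to core in replicate 1 (horizontal axis) and replicate 2 (vertical axis) from normalized CPM, for the members (coloured and named) and the 41 genes of the S phase list (grey), with equality as a dotted line. The replication-coupled genes lie within the grey points, between 1.12 and 1.69 on the horizontal axis and between 0.73 and 1.08 on the vertical axis, and TET1 lies far below at -3.12 in replicate 2.

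Ratios between partner genes inside each library do not depend on the library total. They are given as ratios of counts per kilobase of the canonical transcript. EZH2 to EZH1 was 0.965 and 1.41 in the core and 2.66 and 2.97 in the invasion zone. With the length of all annotated exons, a choice made after seeing the data, the same ratio was 0.359 and 0.525 in the core and 0.987 and 1.1 in the invasion zone. Which of the paralogs was the more abundant thus depends on the length used in core replicate 2 and invasion zone replicate 1. By both lengths EZH1 was the higher in core replicate 1 and EZH2 in invasion zone replicate 2. The change between zones cannot depend on the length, because the lengths cancel. DNMT1 to DNMT3A was 4.37 and 5.80 in the core and 13.1 and 18.8 in the invasion zone, a change of 3.01-fold within replicate 1 and 3.24-fold within replicate 2. DNMT3B to DNMT3A was 0.247 and 0.374 in the core and 0.470 and 1.11 in the invasion zone. DNMT1 to TET1 was 17.8 and 21.9 in the core and 83.3 and 400.5 in the invasion zone, the last resting on the 11 counts of TET1. In each of these ratios the numerator was higher and the denominator lower in both invasion zone libraries. The ratios therefore separate the zones by construction and restate the changes of the single genes.

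Within the maintenance machinery the ratios were less separated. UHRF1 to DNMT1 was 0.550 and 0.863 in the core and 0.729 and 0.828 in the invasion zone, and HELLS to DNMT1 was 0.680 and 0.919 against 0.722 and 0.834. Both pairs of zones overlapped. EZH2 to SUZ12 was 0.304 and 0.506 in the core and 0.505 and 0.619 in the invasion zone, which overlapped, and EZH2 to EED was 0.396 and 0.475 against 0.596 and 0.511, which did not.

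**Figure D4:**
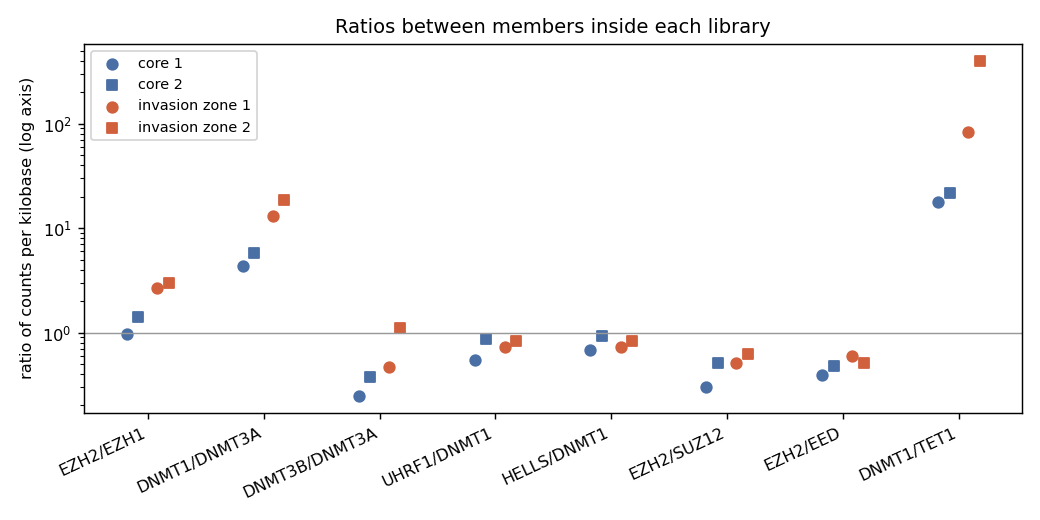
Ratios of counts per kilobase between members (vertical log axis) in each library, with core libraries in blue, invasion zone libraries in orange, circles for replicate 1 and squares for replicate 2. EZH2/EZH1, DNMT1/DNMT3A, DNMT3B/DNMT3A and DNMT1/TET1 separate the zones, which follows from the opposite changes of their genes. EZH2/EED also does not overlap, and UHRF1/DNMT1 and HELLS/DNMT1 stay between 0.550 and 0.919 in both zones.

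In CPM per kilobase of the canonical transcript, DNMT1 was the most abundant of the 10 genes in both zones, with a mean of 17 in the core and 38.4 in the invasion zone. In the core it was followed by HELLS (13.7), SUZ12 (13.6), EED (12.4) and UHRF1 (12.2), whose libraries overlapped, and the lowest library of DNMT1 lay within the range of HELLS. EZH2 (5.47) and EZH1 (4.58) overlapped below them. DNMT3A had 3.37, DNMT3B 1.03 and TET1 0.860. In the invasion zone UHRF1 (29.9) and HELLS (29.9) overlapped in the second place, above EED (18.6) and SUZ12 (18.1), which also overlapped. EZH2 reached 10.2 and EZH1 3.61. DNMT3A (2.48) and DNMT3B (1.83) overlapped, and TET1 was lowest at 0.278. With the length of all annotated exons in place of the canonical transcript, the order changed. SUZ12 then ranked 1 in the core and UHRF1 in the invasion zone, DNMT1 ranked 3 and 2, and EZH2 ranked 8 and EZH1 5 in the core.

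The other genes of the pathway were read from 5 lists, of which 60 of 64 genes were tested. Of these, 34 were higher and 26 lower in the invasion zone, with a median log2 fold change of 0.02, against 7 and 3 of the 10 members with a median of 0.69. In edgeR 0 of the 60 were called without the block, and 2 were called higher (CDCA7 and GADD45A) and 1 lower (CBX7) with it. DESeq2 and an unadjusted p with the 2-fold limit also gave 2 higher and 1 lower. At any fold change with the block, 19 of the 60 passed the adjusted p as higher and 10 as lower. The shares of all genes were 3.79% higher and 7.40% lower for the calls with the block, and 20.0% and 20.1% at any fold. The calls with the block in both directions, and the lower genes at any fold, were thus no more frequent than that background.

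Of the partners and readers of DNA methylation, 14 of 15 were tested, with a median of 0.27, and 8 passed higher and 1 lower at any fold with the block, where 20.0% and 20.1% of all genes did. CDCA7, which activates HELLS, had 15.9 and 34 CPM in the core and 48.8 and 71.1 in the invasion zone, for a log2 fold change of 1.28 (adjusted p 0.143 in edgeR without the block, 0.000278 with it). PCNA, the sliding clamp that binds DNMT1, had 71.7 and 73.2 CPM in the core and 144 and 128 in the invasion zone, for a log2 fold change of 0.91. CDCA7 and PCNA are also on the S phase list.

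Of the demethylation and base excision genes, 9 of 10 were tested, with a median of 0.27. GADD45A, a stress-induced gene linked to repair-based demethylation, had 48.5 and 74.7 CPM in the core and 110 and 168 in the invasion zone, for a log2 fold change of 1.18 with an adjusted p of 9.44e-05 with the block (edgeR). GADD45B had a log2 fold change of 0.60. The paralogs of TET1 did not share its change. TET2 was lower to a smaller degree, with 72.8 and 67.5 CPM in the core and 57.7 and 53.8 in the invasion zone. TET3 was higher, with 9.32 and 13.4 CPM in the core against 13.5 and 19.9 in the invasion zone. These 2 were added after their values were seen.

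Of the accessory subunits of PRC2, 9 of 10 were tested, with a median of 0.03, and 2 passed in each direction at any fold with the block, near the 20.0% and 20.1% of all genes. PHF19 and PHF1, Polycomb-like proteins that guide PRC2 to its sites, went opposite ways. PHF19 had 72.8 and 103 CPM in the core and 145 and 157 in the invasion zone, for a log2 fold change of 0.78. PHF1 had 57.0 and 53.7 CPM in the core and 38.7 and 36.8 in the invasion zone, for a log2 fold change of -0.55.

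The PRC1 subunits, which read the PRC2 mark and ubiquitinate histone H2A, were all tested, 10 of 23 higher and 13 lower, with a median of -0.08. SCML2 (log2 fold change 0.83) and PCGF6 (0.73) had the largest changes among those above 5 CPM. CBX7, a chromodomain subunit, had 7.0 and 5.50 CPM in the core and 3.14 and 1.51 in the invasion zone, for a log2 fold change of -1.31 with an adjusted p of 0.136 without the block and 0.00392 with it (edgeR). CBX7 was named because it was called with the block, after its values were seen. Of the enzymes that oppose Polycomb, 5 of 6 were tested and 0 were called. KDM6B, a demethylase of lysine 27, had 12.6 and 13.0 CPM in the core and 6.72 and 6.22 in the invasion zone, for a log2 fold change of -0.97 with an adjusted p of 0.112 without the block and 0.00301 with it (edgeR), just short of 2-fold. ASXL2 had a log2 fold change of -0.24.

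**Figure D5:**
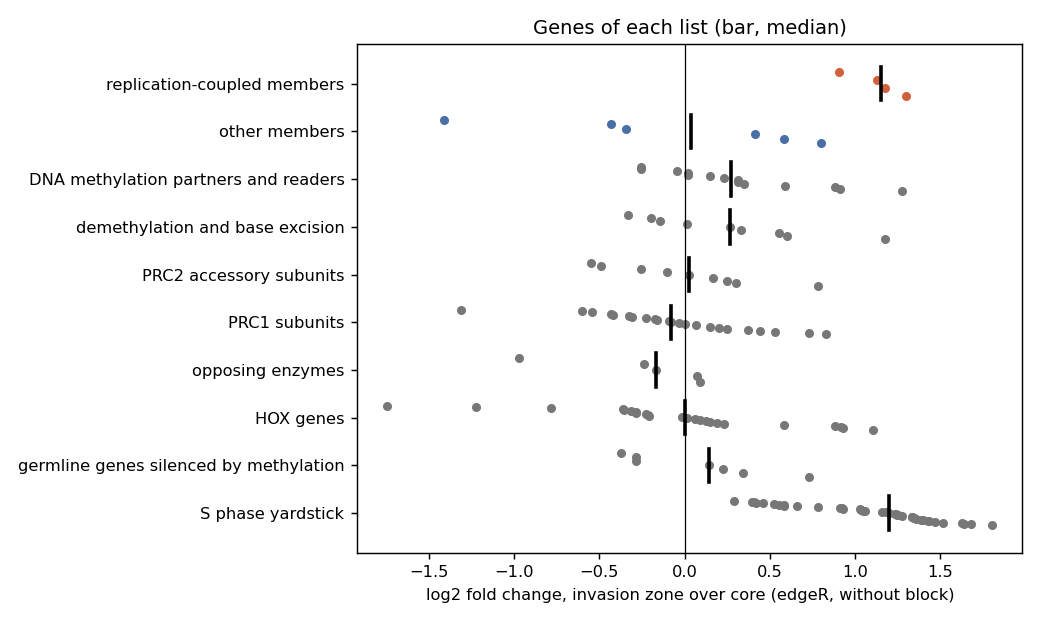
Log2 fold change, invasion zone over core (horizontal axis, edgeR without the block) of each tested gene in each list, with bars at the list medians. The replication-coupled members (median 1.15) and the S phase list (1.20) lie to the right, and the medians of the 5 pathway lists lie between -0.17 and 0.27.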

How the data were processed

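RNA from 2 core and 2 invasion zone samples was measured by RNAseq. According to the methods and the submitters' processing notes, ribosomal reads were removed with Bowtie, the rest aligned to hg38 with STAR, and unique reads counted per gene with HTSeq-count. The deposited values are raw counts, not normalized. Tool versions, the annotation and the strandedness of counting: not given in the sources used here. Of 56306 rows, 2 repeats without counts were left out. Columns were assigned by the zone and replicate in their names.

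Genes with at least 10 counts at the median library size in 2 libraries and 15 in total (15529) were tested with edgeR 4.0.16 (glmQLFit in its current form, TMM scaling, TMM factors 0.985 to 1.009) in R 4.3.3. Standard errors were the log2 fold change divided by the square root of F. DESeq2 1.42.0 and limma 3.58.1 were alternatives, and the procedure was tested on simulated data. The members, classes and lists were chosen with earlier results of these data known. The genes named from each list were those called, and otherwise the 2 with the largest absolute log2 fold change at 5 CPM or more on average. Genes called only with the block, and others so marked, were added after their values were seen.

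By the study's methods, the core and afterwards its invasion zone were punched from a spheroid, which was read as pairing equal replicate numbers, although no source states that a number marks a shared spheroid. Deviations of same-numbered libraries from zone means correlated at 0.58 over 15529 genes. With 2 libraries per zone, the pair of replicate 2 mirrors that of replicate 1 by construction, so it adds no separate comparison. Replicate 1 was also the deeper library in both zones. The value thus cannot tell a shared spheroid from any other difference between the replicates. Blocked values stand beside results where they change a call. No source says that the 2 libraries of a zone came from separate cultures, so p-values measure only the spread between these samples. Libraries of the same zone differed by more than counting error (chi-square per degree of freedom 37.9 in the core and 35.2 in the invasion zone). This cannot tell separate cultures from separate preparations of the same material, since both can vary beyond counting error. Depth ranged from 11789243 to 37591782 counts. Exact intervals of single libraries and of ratios within replicates cover counting error only. Intervals from edgeR rest on its standard errors, which include the spread between libraries. Gene positions and transcript lengths came from GENCODE 44 (GRCh38), which held 98.1% of the identifiers, and promoters from RefSeq (GRCh38.p14), which listed all 10 members. Figures were drawn with matplotlib 3.10.9.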

Additional observations from a re-analysis of the deposited data

How the results depend on the processing

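The 10 members kept the sign of their log2 fold change under all 17 alternative fits, and the difference between the classes kept its sign under all 13. The calls did not hold in the same way. The numbers of genes called higher and lower, 0 and 0, stayed there with RLE or upper-quartile factors, a minimum of 10 counts in each library, the legacy quasi-likelihood test, limma voom, no fold limit, thinning and the GC and length correction, the last pair chosen after seeing the data. They were 81 and 191 without a low-count filter, 348 and 578 in DESeq2, 495 and 995 at an unadjusted p, and ranged from 8 to 693 and from 108 to 970 with each library left out, where the lone library of a zone is assumed to vary like the other zone. With the replicate block, which treats equal numbers as pairs, they were 588 and 1149 in edgeR, 575 and 1088 in limma voom, 489 and 991 after thinning and 849 and 1019 after the GC and length correction. That correction moved the share of higher genes among those at an unadjusted p from 33.2% to 44.9%, and among those called with the block from 33.9% to 45.4%. It shifted the median of all genes to 0.08. The cause was not tested.

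Of the members, 0 higher and 0 lower were called as reported, 1 higher without a low-count filter (DNMT1), 3 higher and 0 lower in DESeq2, and 3 higher and 1 lower at an unadjusted p and in each of the 4 fits with the block. Leaving out each library gave between 0 and 4 higher and between 0 and 1 lower. Without core replicate 1 none was called, and without core replicate 2 EZH2 was called as well. Pathway genes called were 2 higher and 1 lower in DESeq2, at an unadjusted p and with the block in edgeR, limma voom and thinned counts, 5 and 1 when the block was joined to the correction, and 0 to 4 higher and 0 to 1 lower with each library left out. The difference of 1.19 between the classes was 1.12 by medians and ranged from 0.97 to 1.51 with each library left out. All members passed the low-count filter, so leaving out those that did not had no effect. Depth limits mainly TET1, with 11 counts in invasion zone replicate 2.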

Other observations

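HOX genes, textbook targets of Polycomb repression, and germline genes that are silenced by promoter methylation in most tissues were read as further lists. Of 39 HOX genes 24 were tested, 12 higher and 12 lower in the invasion zone, with a median log2 fold change of 0.00. In edgeR 0 of them were called without the block, and 1 higher (HOXC9) and 1 lower (HOXA13) with it, the same numbers as at an unadjusted p with the 2-fold limit, while DESeq2 called 0. With the block, 3.79% of all genes were called higher and 7.40% lower, so these counts are near or below that background. HOXC9 and HOXA13 were named after their values were seen. HOXC8 had 3.96 and 5.76 CPM in the core and 8.0 and 10.3 at the invasion zone, for a log2 fold change of 0.92, and HOXD13 had 6.64 and 12.9 against 15.4 and 20.1, a log2 fold change of 0.88. HOXC9 had a log2 fold change of 1.11, and HOXA13 rested on 12 counts and 1 count in the invasion zone libraries. Of 24 germline genes 7 were tested and edgeR called 0 with or without the block, as did an unadjusted p with the 2-fold limit and DESeq2. MAGEA1 had 150 and 190 CPM in the core and 237 and 327 at the invasion zone, for a log2 fold change of 0.73, and PRAME had 222 and 196 against 169 and 152, a log2 fold change of -0.37. Genes of the MAGEA family share long near-identical stretches, so their counts are uncertain.

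The genes most like the mean profile of the 4 replication-coupled members, by the root mean square difference of centred log2 CPM over the 4 libraries, were GGCT (0.022), LRR1 (0.027), RANGAP1 (0.038), ECT2 (0.039) and CKS2 (0.040). GGCT had 12.1 and 18.8 CPM in the core and 31.0 and 35.0 in the invasion zone. LRR1 had 24.2 and 37.1 against 64.9 and 69.4, and RANGAP1 had 175 and 254 against 422 and 502. ECT2 had 75.8 and 107 against 182 and 208, and CKS2 had 48.6 and 73.2 against 134 and 141. For the other 6 members, whose mean combines genes that were higher and lower, the most alike were CTXN1 (0.0052), SPAST (0.0096), DNASE1L2 (0.016), PRKCA (0.018) and ARHGEF17 (0.019). With 4 libraries many genes share a profile by construction, and the likeness is a description.

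The E2F letters were in the promoter windows of 17 of 30 S phase list genes with a listed promoter, 3 of 9 PRC2 accessory subunits, 3 of 13 partners and readers of DNA methylation and 0 of 20 PRC1 subunits. They were in those of 0 of 8 demethylation and base excision genes, 0 of 5 opposing enzymes, 1 of 20 HOX genes and 2 of 19 germline genes, against 6.55% of all tested genes with a listed promoter.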
